A study of Mus musculus with 2 samples.

Results

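The BCL2 family genes followed here encode the proteins that decide whether a cell's mitochondria release the triggers of apoptosis. They were taken as the rows named Bcl2, Bcl2l1, Mcl1, Bcl2a1b, Bcl2a1d, Bcl2l11, Bad, Bid, Bak1 and Bmf in both deposited files, which gave 10 of 34745 gene models, 1 row for each name. The cells were mouse haematopoietic stem/progenitor cells, read by RNA-seq and enriched from the marrow of C57BL/6 mice given 5-fluorouracil, a drug that kills dividing cells. The cells of both groups were grown with SCF, IL-3 and IL-6 and transduced with a lentivirus, 1 carrying PML/RARa (WT) and the other PML/RARa (2KR). For both groups alike, SCF was at 50 ng/ml, IL-3 and IL-6 at 10 ng/ml each and serum (FBS) at 20%, with 24 h of culture. Polybrene at 6 ug/ml and a spin of 40 min were also the same in both. PML/RARa is the fusion protein of acute promyelocytic leukaemia, and the series title says that 2 of its lysines were studied. Transduced cells were sorted before RNA extraction. Both groups therefore carry the fusion, an arm with the empty pMSCV vector was not analysed here, and neither the age of the mice nor how many were pooled is stated by the labels.

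Each form had 1 library, so no difference below has a replicate check and no p-value was computed. The intervals in brackets are exact 95% intervals that cover counting error only. The libraries held 17606168 counts (WT) and 20462011 counts (2KR), of which the 10 genes took 20751 and 20845. The summed level of 12 stem and progenitor markers was 2811 CPM (counts scaled to library size) in WT and 2665 in 2KR, with Hoxa9 at 0 in both. Its members differed in both directions: Cd34 was at 388 and 723 CPM, Kit, which is also among the mast cell markers, at 1359 and 1158, Mecom had 0 and 997 counts, and Meis1 was 2.67-fold lower in 2KR (2.45 to 2.92). The summed level of 14 mast cell and basophil markers was 8688 CPM in WT and 5052 in 2KR, that of 12 granulocyte markers 265 and 575, and that of 12 monocyte and macrophage markers (13 gene models) 329 and 136. Of these markers Fcer1a, Tpsab1, Camp and Ly6g were at 0 in both libraries. The summed level of 12 erythroid and megakaryocyte markers was 1016 and 1303 CPM, with Hbb-bs and Hba-a2 among those at 0 in both. The summed level of 14 lymphoid markers was 229 and 252 CPM, with Cd3e, Cd79b, Ebf1, Pax5 and Rag1 at 0 in both. Nkg7 and Il7r were chosen from that list after their values were seen. Nkg7 made up most of the sum, at 191 and 247 CPM, while Il7r was at 31.3 and 0.582. Of the 4 lymphoid markers with a mean of at least 1 CPM, 1 had a ratio above 1, and their median log2 ratio was -0.46. Of all gene models with that mean, 52.3% had a ratio above 1. The part of these shifts in cell type markers in the differences below was not tested, and in such bulk RNA fewer cells of a type and less RNA per cell cannot be told apart.

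In healthy cells the survival proteins BCL2, BCL-XL (from Bcl2l1), MCL1 and A1 (from the Bcl2a1 genes) hold the killers in check. BAK, from Bak1, is an effector that opens the outer mitochondrial membrane when it is freed. BIM (from Bcl2l11), BAD, BID and BMF are BH3-only proteins, which sense loss of growth factor, damage or detachment and occupy or activate the others. Haematopoietic progenitors depend on MCL1, and withdrawal of cytokines such as IL-3 is a classic trigger of BIM-dependent death.

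Bcl2a1b and Bcl2a1d came out at the floor of the data, and they belong to a set of nearly identical copies of A1. The first 90 coding bases of 3 copies follow, from GENCODE M21 transcripts (build GRCm38), with capitals at the positions where the copies are not all the same.
Bcl2a1a: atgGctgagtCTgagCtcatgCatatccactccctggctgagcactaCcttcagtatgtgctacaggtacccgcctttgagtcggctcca
Bcl2a1b: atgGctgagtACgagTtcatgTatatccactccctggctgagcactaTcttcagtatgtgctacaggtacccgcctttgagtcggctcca
Bcl2a1d: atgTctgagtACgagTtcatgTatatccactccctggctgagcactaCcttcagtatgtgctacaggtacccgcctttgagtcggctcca
This is the 90-base stretch with the most differences, 6, and over the whole 519-base coding sequence the 3 copies differ at 12 positions. Bases 95 to 311 form a run of 217 bases with no difference. Bcl2a1b and Bcl2a1d were 98.8% identical over the coding sequence. Of all 50-base windows in the Bcl2a1b transcript, 79.2% also occur in a transcript of another gene, and the share was 79.5% for Bcl2a1d. The shared windows came from the other A1 copies and from Gm29094, a gene model that overlaps 401 exon bases of Bcl2a1b. Bcl2l1, Mcl1 and Bmf had 0 such windows.

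The upstream sequence of the genes with the largest difference in each direction and of the other gene that was higher in 2KR is given next, so that the reader can see what lies before their starts. The sequences are from RefSeq (GRCm38.p6), 250 bases each, written 5′ to 3′ on the gene's strand and ending at the base before the annotated start. Capitals mark matches on either strand to the motifs listed after them.
Bcl2, chr1:106714291-106714540, minus strand: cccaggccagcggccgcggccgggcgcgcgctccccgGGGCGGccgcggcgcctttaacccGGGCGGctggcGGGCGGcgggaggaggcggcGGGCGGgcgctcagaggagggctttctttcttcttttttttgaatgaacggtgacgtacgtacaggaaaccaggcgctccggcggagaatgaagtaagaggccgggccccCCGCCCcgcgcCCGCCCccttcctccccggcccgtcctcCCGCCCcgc
Bcl2l1, chr2:152831729-152831978, minus strand: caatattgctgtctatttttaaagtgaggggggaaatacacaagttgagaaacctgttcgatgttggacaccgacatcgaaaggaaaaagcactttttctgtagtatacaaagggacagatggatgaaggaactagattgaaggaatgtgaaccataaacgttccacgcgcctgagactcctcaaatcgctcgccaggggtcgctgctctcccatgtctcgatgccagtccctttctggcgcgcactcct
Bcl2l11, chr2:128125788-128126037, plus strand: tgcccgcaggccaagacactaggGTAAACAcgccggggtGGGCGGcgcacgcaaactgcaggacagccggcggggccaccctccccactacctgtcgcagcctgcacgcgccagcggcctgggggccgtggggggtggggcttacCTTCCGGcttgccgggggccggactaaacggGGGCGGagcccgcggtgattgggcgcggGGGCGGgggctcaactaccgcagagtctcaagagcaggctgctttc
The motifs searched were GGGCGG (the GC box of SP and KLF factors), CCGGAAG (ETS factors), GAGGAAGT (PU.1), AGGTCA (the core site of nuclear receptors), TTCNNNGAA (STAT factors), TGTTTAC (FOXO factors), CACGTG (the E-box of MYC and MAX) and TGACGTCA (the site of CREB and ATF). All matches were taken from 300-base windows that run from 250 bases before to 50 bases after a start, and no matches overlapped each other in the windows of the 10 genes. The Bcl2 window held 7 GC boxes. The Bcl2l11 window shown held 3 GC boxes, 1 ETS match and 1 FOXO match. The Bcl2l1 sequence shown held none of the 8 motifs, and the window around it had 1 ETS match after the start. The 10 genes had 16 annotated windows, of which 56.3% held a GC box, against 35.7% of all 32851 windows. The PU.1 word was in 25% of them, against 3.20% of all windows. Those 4 windows belonged to Bak1, Bad, Bcl2a1b and Bcl2a1d, and the last pair are copies of 1 sequence. Exons of the gene itself covered 250 of the 250 upstream bases for Bak1, 197 for Bad, and 64 each for Bcl2a1b and Bcl2a1d. The nuclear receptor core site, which PML/RARa can bind, was in 12.5%, against 16.3% of all windows. It was found in 1 of 3 windows of Bcl2l1 and in 1 of 3 windows of Bmf. In that Bcl2l1 window all 250 upstream bases lay in exons of Bcl2l1, and in that Bmf window 1 base lay in exons of Bmf. A match describes letters and does not show a bound site.

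Of the 10 genes, 8 had a mean of at least 1 CPM, and 0 of these 8 were at least 2-fold different on the log2 scale of CPM + 1. Over all 12466 gene models with that mean, 7.22% were, 2.66% higher and 4.56% lower in 2KR. At 1.5-fold, 1 of the 8, Bcl2l1, was past the threshold, or 12.5%, against 16.6% of all tested models, 6.92% higher and 9.67% lower. Counting error alone was small: the interval of the ratio lay wholly above 1 for 2 genes and wholly below 1 for 4, which is 75% of the 8 against 60.1% of all tested models, 31.6% above and 28.5% below. Scaled by library total, an alternative chosen after the values were seen, the interval of Mcl1 spanned 1, and the share was 62.5% against 60.2%. The median size of the log2 ratio was 0.42 over the 8 genes and 0.22 over all tested models. The signed median was -0.12, against 0.02 over all tested models. Of the 8, 2 genes were higher and 6 lower in 2KR, while 52.3% of all tested models were higher. The differences thus ran in both directions within the survival genes and within the BH3-only genes.

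**Figure D1:**
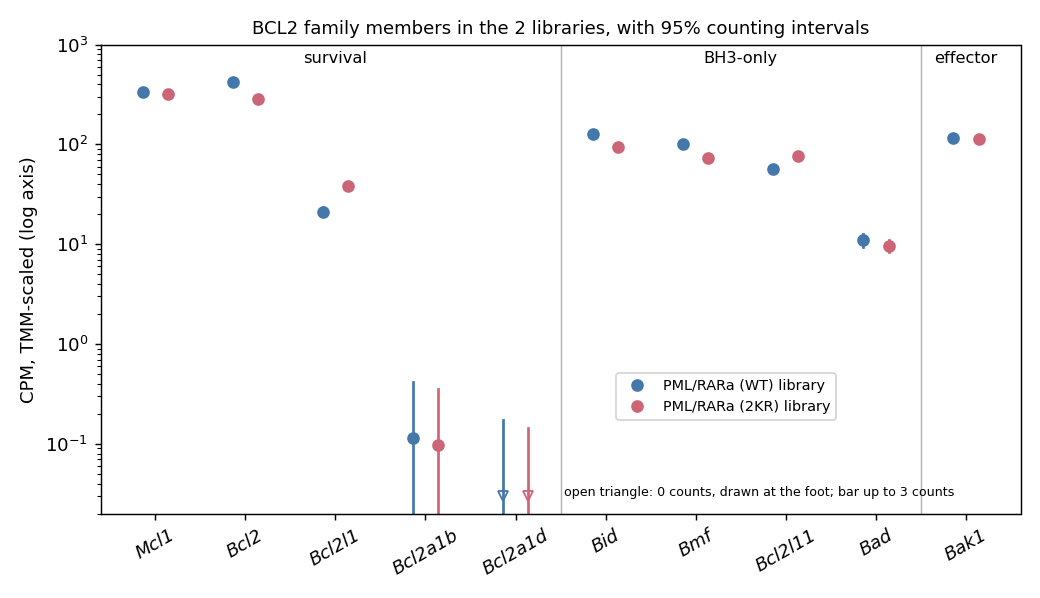
Level of each BCL2 family gene in the WT and 2KR libraries in CPM on a log axis, grouped by role; points are the single library of each form and bars are exact 95% counting intervals, or for 0 counts reach up to the floor of 3 counts. Bcl2 was 425 CPM in WT and 287 in 2KR, Bcl2l1 was 21.2 and 38.3, and Bcl2a1b and Bcl2a1d lie at the bottom with 2 counts and 0 counts in each library.

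Among the survival genes, Bcl2, Bcl2l1 and Mcl1 each behaved differently. Bcl2 (ENSMUSG00000057329, chromosome 1, 106538178 to 106714274, minus strand), the founding member of the family, was read with 7427 counts in WT and 5918 in 2KR. Its level was 425 CPM in the WT library against 287 CPM, or 1.48-fold lower with 2KR (1.43 to 1.53). In CPM this was the biggest difference of the 10 genes, and the level fell by 137.6 CPM. Its log2 ratio of -0.56 stood at percentile 10.1 of all tested models.

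Bcl2l1 (ENSMUSG00000007659, chromosome 2, 152780668 to 152831728, minus strand), which encodes BCL-XL, went the other way. Its 371 counts (WT) and 790 counts (2KR) are 21.2 and 38.3 CPM, 1.81-fold higher with 2KR (1.60 to 2.05). The log2 ratio was 0.82 and 10.03% of all tested models had one of larger size. The upper end of the interval lies past 2-fold, so at this depth the ratio could not be placed on 1 side of that threshold. No other gene model overlaps Bcl2l1 in GENCODE M21. On the deposited FPKM (counts per kilobase of gene length and library total) with a pseudocount of 1 the log2 ratio was 0.62, because the pseudocount weighs more on a low value.

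Mcl1 (ENSMUSG00000038612, chromosome 3, 95658788 to 95663176, plus strand), whose short-lived protein must be made continually, was at 332 CPM in WT (5797 counts) and 319 in 2KR (6565 counts). The ratio was 0.961 (0.927 to 0.996). Its deposited FPKM of 81.7 in WT and 79.7 in 2KR lay above that of 96.9% and 96.6% of the tested models. Mcl1 was thus among the abundant transcripts of both libraries, and the interval of its ratio ended just below 1, or spanned it with scaling by library total (0.940 to 1.01).

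Bcl2a1b (ENSMUSG00000089929, chromosome 9, 89199209 to 89207827) had 2 counts in WT and 2 in 2KR, and Bcl2a1d (ENSMUSG00000099974, chromosome 9, 88723285 to 88731914) had 0 and 0. The other A1 copies, Bcl2a1a and Bcl2a1c, had 0 counts in both libraries as well. A count of 0 allows up to 0.172 CPM in WT and 0.146 in 2KR at a floor of 3 counts. The ratio of Bcl2a1b, 0.849, had an interval from 0.0615 to 11.7 and gives no direction. Neither labels nor headers state how reads that match several copies were treated, and the part of shared reads in these low counts was not tested.

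Of the 4 BH3-only genes, 3 were lower in 2KR and 1, Bcl2l11, was higher. Bcl2l11 (ENSMUSG00000027381, chromosome 2, 128126038 to 128162547, plus strand) encodes BIM, which binds all survival proteins of the family. Its 985 counts (WT) and 1569 counts (2KR) are 56.3 and 76.1 CPM, 1.35-fold higher with 2KR (1.25 to 1.47). Its log2 ratio of 0.43 stood at percentile 88.6 of all tested models.

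Bmf (ENSMUSG00000040093, chromosome 2, 118528757 to 118549687, minus strand), a close relative of BIM in its binding and like it held on dynein light chains, had 100.4 CPM in WT (1756 counts) and 72.9 in 2KR (1502 counts). It was 1.38-fold lower in 2KR (1.29 to 1.48). The 2 BH3-only genes that lie on chromosome 2, Bmf and Bcl2l11, thus differed in opposite directions. Bid (ENSMUSG00000004446, chromosome 6, 120891930 to 120916853, minus strand), whose protein is cut by caspase 8 to reach the mitochondria, had 127 CPM in WT (2215 counts) and 94.8 in 2KR (1953 counts). It was 1.34-fold lower in 2KR (1.26 to 1.42).

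The gene Bcl2l13 lies on the strand opposite to Bid and shares 628 exon bases with it, 17.7% of the Bid exons. Bcl2l13 was read with 1137 counts (WT) and 1690 counts (2KR), 1.26-fold higher with 2KR (1.17 to 1.36), the opposite direction to Bid. Whether counting used strand is not known from the labels or headers, so the share of such reads in either count was not tested.

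Bad (ENSMUSG00000024959, chromosome 19, 6941861 to 6951898, plus strand), which growth factor signalling keeps inactive by phosphorylation, was the least counted of the 8 genes. Its 192 counts (WT) and 198 counts (2KR) are 10.98 and 9.61 CPM. The ratio was 0.875 (0.714 to 1.07), and a difference was not detectable at this depth. Bad shares 524 exon bases, 20.5% of its exons, with Gpr137 on the opposite strand, which had 546 and 562 counts.

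The effector Bak1 (ENSMUSG00000057789, chromosome 17, 27019810 to 27029009, minus strand) had the ratio nearest to 1 of the 8. Its 2006 counts (WT) and 2348 counts (2KR) are 114.7 and 114.0 CPM, a ratio of 0.993 (0.935 to 1.05). Ggnbp1 on the opposite strand shares 437 exon bases with it, 18.2% of the Bak1 exons. Ggnbp1 was read with 648 counts (WT) and 118 counts (2KR), so a neighbour that differed strongly lies over part of Bak1, and its part in the Bak1 count was not tested. A further gene model named Ggnbp1 on the opposite strand shares 177 exon bases with Bak1, 7.35% of the Bak1 exons, and has no deposited count.

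**Figure D2:**
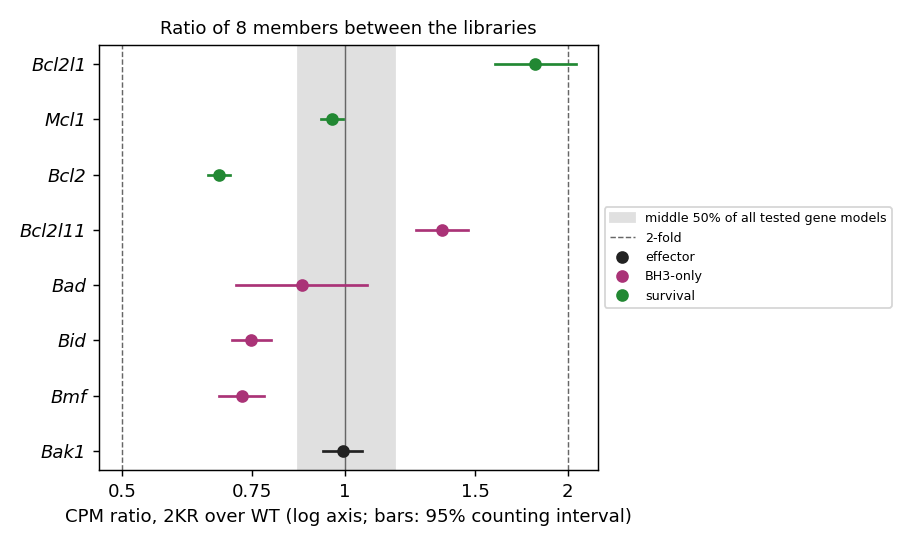
Ratio of CPM, 2KR over WT, for the 8 genes with a mean of at least 1 CPM on a log axis; points are ratios, bars exact 95% counting intervals, the grey band the middle 50% of all tested models and dashed lines 2-fold. Bcl2l1 (1.81) and Bcl2l11 (1.35) lie above the band, Bcl2 (0.676), Bmf (0.726) and Bid (0.748) below it, and Mcl1, Bad and Bak1 within it.

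Levels of different genes can be set side by side only per length, and the length used by the authors matters here. From the deposited FPKM and counts the gene length used can be recovered. It was 1.10 times the exon union of GENCODE M21 for Bcl2, 1.18 times for Mcl1, 1.54 for Bid, 1.83 for Bak1, 1.93 for Bcl2l11, 1.94 for Bmf and 2.60 for Bcl2l1. For Bcl2 the deposited length was 10032 bases against an exon union of 9157, and for Bcl2l1 it was 11905 bases against 4586. Over 9793 well-counted models with more than 1 transcript, the median of this ratio was 1.31. The deposited length was more than 1% over the exon union in 7584 of them, and for such genes the deposited FPKM is lower than one computed on the exon union. The length leaves the ratio between libraries as it is.

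On the deposited FPKM the order in WT was Mcl1 (81.7), Bcl2 (42.0), Bak1 (25.9), Bid (23.0), Bmf (9.81), Bcl2l11 (3.60), Bad (3.05), Bcl2l1 (1.77), Bcl2a1b (0.139) and Bcl2a1d (0). In 2KR it was Mcl1 (79.7), Bcl2 (28.8), Bak1 (26.1), Bid (17.5), Bmf (7.22), Bcl2l11 (4.94), Bcl2l1 (3.24), Bad (2.70), Bcl2a1b (0.120) and Bcl2a1d (0). The order differed only in Bcl2l1 and Bad, which exchanged places on this scale. Per kilobase of exon union or of principal transcript, Bcl2l1 was above Bad in both libraries. Per kilobase of the longest principal transcript, a scale chosen after the deposited lengths were seen, Bcl2 in WT was at 59.1 CPM per kilobase, behind Mcl1 at 97.0 and ahead of Bid at 57.9 and Bak1 at 48.1. In 2KR it was at 39.9, behind Mcl1 at 93.2, Bak1 at 47.7 and Bid at 43.3. On that scale Bmf, Bcl2l11 and Bcl2l1 were at 15.7, 15.1 and 14.9 in 2KR, and at 21.6, 11.2 and 8.26 in WT. On that scale these 3 genes were thus spread in WT and close together in 2KR. They were further apart in 2KR on the other 2 scales. Per kilobase of exon union, also chosen after the lengths were seen, they were at 13.9, 9.48 and 8.36, and on the deposited FPKM at 7.22, 4.94 and 3.24. Per kilobase of exon union Bcl2 was behind Mcl1 and Bak1 in both libraries.

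The make-up of the survival transcripts shifted with these differences. Of the FPKM sum of the 5 survival genes, Mcl1 made up 65.0% in WT and 71.2% in 2KR, Bcl2 33.5% and 25.8%, and Bcl2l1 1.41% and 2.90%. Per kilobase of principal transcript Bcl2l1 made up 5.02% in WT and 10.07% in 2KR. Mcl1 had the largest share in both libraries on each of the 3 length scales.

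**Figure D3:**
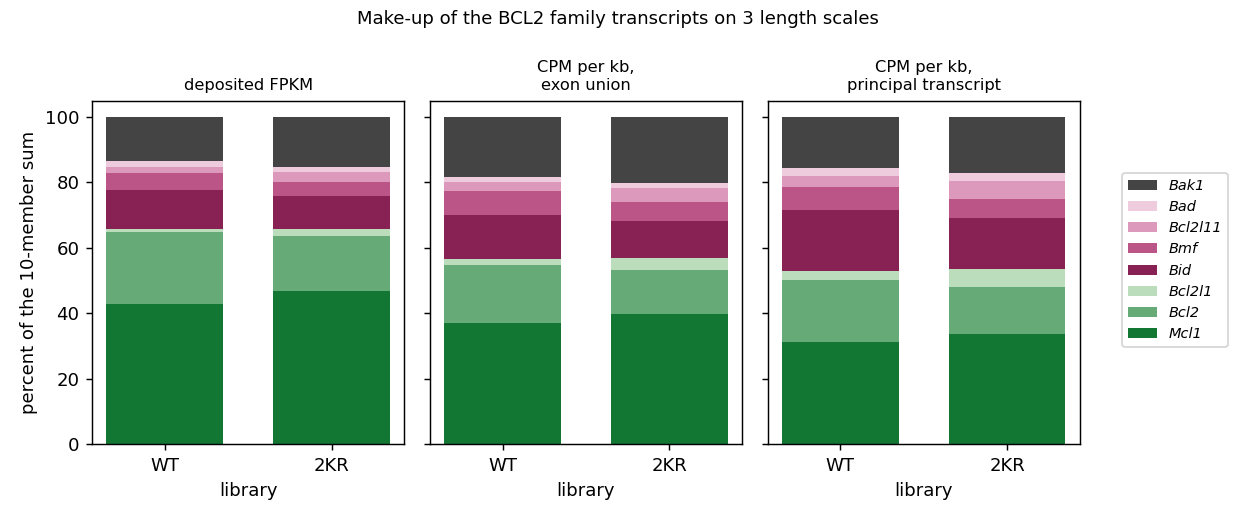
Share of each gene in the length-scaled sum of the 10 genes (percent, stacked) in the WT and 2KR libraries, on the deposited FPKM, on CPM per kilobase of exon union and on CPM per kilobase of principal transcript; the 2 A1 genes are too low to see. Green shades are survival genes, purple shades BH3-only genes and dark grey the effector Bak1; Mcl1 was 42.8% of the FPKM sum in WT and 46.8% in 2KR, and Bcl2 22.0% and 16.9%.

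The balance between survival and death genes was compared as the ratio of their summed FPKM. The 5 survival genes summed to 125.7 FPKM in WT and 111.8 in 2KR, and Bak1 with the 4 BH3-only genes to 65.4 and 58.4. The ratio was 1.92 in WT and 1.91 in 2KR, a change of 0.996 (0.953 to 1.04, an approximate 95% interval from counting error). Both sums were lower in 2KR, and their ratio differed by less than counting error. The level of this ratio depends on the length scale. Per kilobase of exon union it was 1.30 in WT and 1.32 in 2KR, and per kilobase of principal transcript 1.12 and 1.15. Both of these scales were chosen after the deposited lengths were seen. The result also depends on which genes are counted. With Bcl2l2, Bcl2a1a, Bcl2a1c and Bcl2l10 added to the survival genes and Bax, Bok, Bbc3, Pmaip1, Hrk and Bik to the death genes, the ratio was 0.775 in WT and 0.660 in 2KR. On sums of raw counts it was 1.90 and 1.75, a change of 0.923 (0.886 to 0.961).

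Ratios of 2 genes within a library do not depend on the scaling between libraries, and they are given next for known binding partners of the family. How often pairs of other genes differ by as much was not computed. Of all single tested models, 60.1% had a ratio whose counting interval left out 1. Bcl2l11 over Bcl2 was 0.0857 in WT and 0.171 in 2KR on the FPKM scale, a change of 2.00 (1.83 to 2.18). Bcl2l11 over Mcl1 changed by 1.41 (1.29 to 1.54). Bcl2l11 over Bcl2l1 changed the other way, from 2.04 to 1.52, or 1.34-fold lower in 2KR (1.15 to 1.55). The BIM transcript was thus higher in 2KR relative to Bcl2 and Mcl1 and lower relative to Bcl2l1.

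The ratios of Bid, Bad and Bak1 to Bcl2l1 share a denominator that was itself 1.81-fold higher in 2KR. Bid over Bcl2l1 was 2.41-fold lower (2.10 to 2.78), Bad over Bcl2l1 2.06-fold lower (1.62 to 2.63) and Bak1 over Bcl2l1 1.82-fold lower (1.58 to 2.09). Relative to Mcl1, Bmf was 1.32-fold lower (1.22 to 1.43), and Bak1 differed by less than counting error, with a change of 1.03 (0.964 to 1.11). The remaining pairs were chosen after their values were seen. Among them Bcl2l1 over Bcl2 had the largest change of the 12 pairs, from 0.0421 to 0.112 on the FPKM scale, 2.67-fold higher in 2KR (2.35 to 3.05). Bcl2l11 over Bmf was 1.86-fold higher (1.67 to 2.07).

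**Figure D4:**
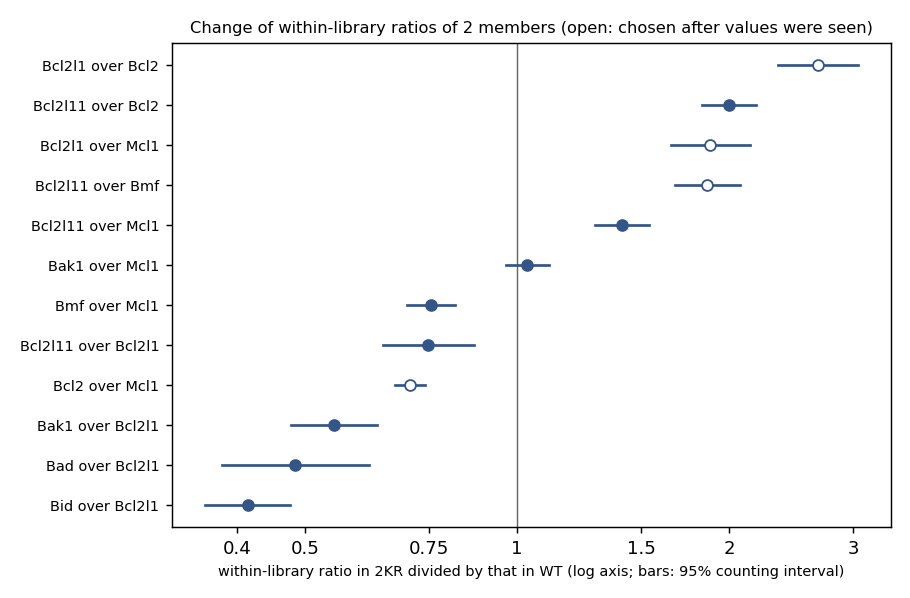
Change of the within-library ratio of 2 genes, 2KR divided by WT, on a log axis for 12 pairs; points are changes, bars exact 95% intervals from the counts and open points pairs chosen after their values were seen. Bcl2l1 over Bcl2 (2.67) and Bcl2l11 over Bcl2 (2.00) lie highest, Bid over Bcl2l1 (0.414) lies lowest, and the interval of Bak1 over Mcl1 spans 1.

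The other genes of the family gave 10 tested models of 16, of which 0 passed 2-fold in either direction, against 7.22% of all tested models. A ratio above 1 was found for 7 of the 10, against 52.3% of all tested models. Their median log2 ratio was 0.20, against 0.02. Bax, the other classic effector beside BAK, was read at 38.8 CPM (WT) and 47.5 CPM (2KR), 1.22-fold higher (1.11 to 1.35). Bnip3, a hypoxia-induced relative that marks mitochondria for removal, was 1.27-fold lower (1.20 to 1.34). The following were chosen after their values were seen. Bok, a further effector, had 78 counts (WT) and 182 counts (2KR) and was 1.98-fold higher (1.51 to 2.62). Bcl2l14 had 25 and 74 counts, a ratio of 2.51 (1.58 to 4.13), and stayed under the 2-fold rule because of the pseudocount. Bbc3 and Pmaip1 encode PUMA and NOXA, BH3-only proteins induced by p53. Bbc3 was 1.25-fold higher (1.12 to 1.40) and Pmaip1 had a ratio of 0.982 (0.926 to 1.04). The effectors Bax and Bok thus had ratios above 1 with intervals that leave out 1, while the ratio of Bak1 was 0.993. An interval wholly above 1 was also found for 31.6% of all tested models.

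Downstream of the mitochondria, 1 of 14 tested genes of the apoptosome, the caspases and their inhibitors passed 2-fold upward with 2KR and 0 passed it downward. Of all tested models, 2.66% passed it upward and 4.56% downward. The median log2 ratio of the list was 0.09. The gene past 2-fold was Xiap, the best known direct inhibitor of caspases, at 27.0 CPM (WT) and 96.0 CPM (2KR), a 3.56-fold higher level (3.22 to 3.94). Casp8, which cuts BID, was 1.41-fold lower in 2KR (1.31 to 1.52). In the death receptor pathway 0 of 11 tested genes were past 2-fold and the median was -0.04. Tnfrsf1a, a receptor of TNF, was 1.13-fold higher (1.03 to 1.25) and the kinase gene Ripk1 had a ratio of 0.957 (0.887 to 1.03). Fas, a death receptor chosen after its values were seen, had 107 counts (WT) and 57 counts (2KR). Its ratio was 2.21-fold lower (1.59 to 3.11), yet on CPM + 1 it fell short of the rule. With a pseudocount of 0.1 in place of 1, the list had 1 gene past 2-fold downward.

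Of 16 tested genes that act on the stability and activity of the family proteins, 0 were past 2-fold, against 7.22% of all tested models. A ratio above 1 was found for 8 of the 16, against 52.3% of all tested models, and their median log2 ratio was -0.01. Pim2, a kinase that phosphorylates BAD, was 1.09-fold higher (1.06 to 1.12), and Ywhab, a 14-3-3 protein of the kind that holds phosphorylated BAD, 1.06-fold higher (1.02 to 1.10). The next pair was chosen after their values were seen. Huwe1, a ubiquitin ligase of MCL1, was 1.05-fold higher (1.03 to 1.08). Pim3, a kinase of the same family as Pim2, had 538 counts (WT) and 323 counts (2KR) and was 1.96-fold lower (1.71 to 2.26). Among 12 mitochondrial partners 0 were past 2-fold, against the same 7.22%, and the median was 0.01. Vdac1, a channel of the outer membrane, was 1.16-fold higher (1.11 to 1.22), and Slc25a5, the adenine nucleotide carrier, 1.08-fold higher (1.03 to 1.12).

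Of 22 tested transcription factors that are tied to genes of this family, 0 passed 2-fold upward and 3 passed it downward with 2KR. Of all tested models, 2.66% passed it upward and 4.56% downward. The list had 7 ratios above 1 and a median log2 ratio of -0.17. Over all tested models, 52.3% had a ratio above 1 and the median was 0.02. The 3 factors past 2-fold were Egr3, 13.5-fold lower (10.6 to 17.3), Egr1, 3.03-fold lower (2.97 to 3.09), and the NF-kB subunit gene Relb, 2.25-fold lower (1.77 to 2.89). With a pseudocount of 5, and on the deposited FPKM, the number was 2. Atf4, the factor of the integrated stress response, was 1.12-fold lower (1.08 to 1.17). The FOXO genes, whose products act on Bcl2l11, were chosen after their values were seen and did not move together. Foxo3 was 1.17-fold higher (1.12 to 1.23), while Foxo1 and Foxo4 were 1.52-fold (1.41 to 1.63) and 1.59-fold lower (1.43 to 1.77). Any part of these factors in the levels of Bcl2, Bcl2l1 or Bcl2l11 was not tested.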

How the data were processed

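RNA-seq libraries of mouse progenitors with PML/RARa (WT) or PML/RARa (2KR) were compared, grouped by the infection in the labels. HISAT2 2.0.4 and the build GRCm38 are named in the submitters' processing notes; no label or header names the counting program, annotation release, strandedness or read length. The deposited values are raw read counts and FPKM per gene model, per the file headers. Counts were scaled with TMM (edgeR 4.0.16, R 4.3.3) to CPM; intervals and plots were made with scipy 1.17.1 and matplotlib 3.10.9 in Python 3.11.15. A model was called different when the log2 ratio of CPM + 1 was at least 1 in size, where the mean level reached 1 CPM. With 1 library per form no test was run, and no claim about other cultures can be made. Ratios have Clopper-Pearson intervals (exact, given both counts), and pairs have conditional intervals of the odds ratio; PCR copies are not independent molecules, so they cover counting error only. The floor for 0 counts was 3 counts. Promoter windows came from RefSeq (GRCm38.p6), and transcripts and exons from GENCODE M21.

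The genes named were all 10 members. From each further list, those past 2-fold (up to 4) and the 2 with the highest mean FPKM were named. Cell type marker lists are given as sums, with some of their genes named. Some genes under this rule are not reported here. The genes and lists were chosen with earlier results of these data known. On simulated data for 12495 genes of this comparison, with counting noise only, the rule called 0 of 12295 unchanged genes. The simulation held no spread between cultures, so it gives no rate of false calls for 1 library per form. For true differences of 1.5-fold, 2-fold, 3-fold and 4-fold it called 0, 11, 50 and 49 of 50 genes. Alternatives were other pseudocounts, scalings (library total, upper quartile, DESeq2 1.42.0 size factors), filters and length scales.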

Additional observations from a re-analysis of the deposited data

How the results depend on the processing

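Each of the 8 genes with a mean of at least 1 CPM was recomputed under 9 alternatives: pseudocounts of 0.1 and 5, scaling by library total, upper quartile or DESeq2 size factors, centring on the median, no filter, a mean of at least 5 CPM, and the deposited FPKM. The filters leave a ratio as it is and a pseudocount cannot change its sign. The log2 ratios ranged from -0.58 to -0.53 for Bcl2, 0.62 to 0.85 for Bcl2l1 and 0.37 to 0.45 for Bcl2l11. The ratio of Bak1 was near 1 and its log2 value was above 0 with scaling by library total and on FPKM. The count of the 10 genes past 2-fold was 0 under each of them and 1 at 1.5-fold. The log2 change of the survival to death balance was -0.006 as reported, -0.12 on raw counts and -0.23 with the other family genes added, and 0.015 and 0.037 on the 2 other length scales, which were chosen after the deposited lengths were seen. The number of models past 2-fold was 900 as reported, 444 with a pseudocount of 5, 448 on FPKM and 584 with a mean of at least 5 CPM. Of 288 counts for gene lists, 11 moved, either by over 1.5 times or to or from 0. No paired analysis was possible because each form has 1 library, and no library could be left out. Depth limited Bad; for the A1 genes the parts of depth and of shared reads were not tested, and the spread between cultures was not measured.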
